A study of Mus musculus with 2 samples.

Results

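The genes described here are those of 3 EGF-like ligands (Areg, Ereg and Btc) and of the 4 ERBB receptors (Egfr, Erbb2, Erbb3 and Erbb4), 7 of the 21887 protein-coding genes of the gene table, set against the places where FOS was found on chromatin. A FOS peak was counted for a gene if the authors' table gave that gene as the nearest one, or named it as the host of the peak. For a gene with neither, the peaks within 200 kb of the gene were taken, with the genes to which they were assigned. FOS pairs with JUN proteins to form the transcription factor AP-1, and the assay was chromatin immunoprecipitation followed by sequencing (ChIP-seq). The cells were granulosa cells, the somatic cells of the ovarian follicle, released by puncture from ovaries of wild-type female mice aged 25 days. The mice had been primed with PMSG, which makes follicles grow, and were sampled 3 h after hCG, a hormone that stands in for the luteinizing hormone surge that triggers ovulation. Of the 2 libraries of the series, both from this same treatment and genotype, 1 was made with a FOS antibody and the other has no antibody in its label. Peaks of the FOS library alone were analysed here. With 1 library there is no replicate, no unstimulated sample and no error between animals, and the sequencing depth is unknown because the values carry no read counts. A peak list holds no expression values, so the cell type could not be checked against its markers.

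In the preovulatory follicle the luteinizing hormone receptor sits mainly on the outer, mural granulosa cells, while the cumulus cells around the oocyte respond through EGF-like growth factors. Amphiregulin (Areg), epiregulin (Ereg) and betacellulin (Btc) are made as membrane precursors, are cut free by metalloproteases and activate EGFR on neighbouring cells, which drives cumulus expansion and the return of the oocyte to meiosis through the ERK kinases. The ERBB receptors work as dimers: EGFR and ERBB4 bind ligand and carry an active kinase, ERBB2 has no known ligand and is the favoured partner, and ERBB3 binds neuregulins but has a weak kinase.

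FOS peaks were found in the genes of 3 receptors and in none of the ligand genes. Egfr, Erbb3 and Erbb4 each had 1 peak, and Areg, Ereg, Btc and Erbb2 had none. Across all protein-coding genes, 8.69% were the nearest or the host gene of a peak, and 7.58% were the nearest gene. For each of the 3 peaks the nearest and the host gene were the same gene. The share is for reading the count of 3 of 7 only, because the genes were chosen with earlier results of these data known. Peaks assigned to other genes lay near most of the rest. Any peak within 50 kb was found for 4 of the 7 genes, against 18.2% of all protein-coding genes, and within 100 kb for 5 of 7, against 27.6%. Within 200 kb 6 of the 7 genes had a peak, against 41.7%, and Erbb2 was the exception. Egfr, Erbb3 and Erbb4 are in each of these counts through their own peaks. Areg, Ereg and Btc are neighbours, and every peak within 200 kb of Areg is also within 200 kb of Ereg or Btc. These genes are therefore not independent in the count.

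The upstream windows of a pair of ligand genes and of the receptor gene with the highest score are shown because the peaks near these genes lay outside them. The sequences are from RefSeq (GRCm38.p6, the assembly that mm10 names), 250 bases ending at the base before the transcription start site (TSS), read 5′ to 3′ on the strand of the gene. Capitals mark the cAMP response element (CRE), TGACGTCA, where it occurs.
Areg upstream window, chr5:91139349-91139598, plus strand: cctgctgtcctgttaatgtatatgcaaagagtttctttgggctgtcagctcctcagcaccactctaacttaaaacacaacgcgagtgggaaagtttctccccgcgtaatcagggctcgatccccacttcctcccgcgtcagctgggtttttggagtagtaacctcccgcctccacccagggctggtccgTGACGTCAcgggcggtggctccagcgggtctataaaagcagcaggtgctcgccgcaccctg
Btc upstream window, chr5:91402995-91403244, minus strand: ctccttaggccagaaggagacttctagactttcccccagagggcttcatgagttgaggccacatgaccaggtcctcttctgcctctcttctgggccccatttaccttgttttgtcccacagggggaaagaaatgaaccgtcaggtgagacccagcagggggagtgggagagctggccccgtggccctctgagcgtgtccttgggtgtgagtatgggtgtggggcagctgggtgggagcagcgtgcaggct
Egfr upstream window, chr11:16751953-16752202, plus strand: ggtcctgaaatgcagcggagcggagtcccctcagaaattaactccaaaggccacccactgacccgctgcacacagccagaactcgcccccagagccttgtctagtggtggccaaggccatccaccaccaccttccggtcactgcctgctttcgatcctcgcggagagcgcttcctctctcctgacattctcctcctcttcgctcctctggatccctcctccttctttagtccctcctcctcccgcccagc

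The promoter table held 300-base windows, 250 bases before to 50 after the TSS, for 5 of the 7 genes: Areg, Btc, Egfr, Erbb2 and Erbb4. Ereg and Erbb3 had no window, and Erbb3 is the one gene of the 7 with a promoter peak. No FOS peak overlapped any of the 5 windows, against 1.11% of all 32851 windows, and none among 5 is near that share. The AP-1 motif was searched as TGANTCA, which reads the same on both strands. It was in none of the 5 windows, against 7.81% of all windows and 29.6% of the 365 windows that a peak overlapped. With up to 1 mismatch it was still in none of the 5, against 69.4% of all windows. The CRE, whose letters cannot contain TGANTCA and also read the same on both strands, was found once, in Areg, from 61 to 54 bases before the TSS, and was in 1.79% of all windows. A match is a run of letters and not a site, and a window with no match says only that the letters are not in it.

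Around the ligand genes the peaks stood on either side of Ereg and Areg and between Areg and Btc. The genes lie together on chromosome 5, in the order Epgn (epigen, another EGF-like ligand), Ereg, Areg, Btc, over 375 kb. A stretch of 325 kb without a peak held the whole of Epgn, Ereg and Areg. Such a gap was common in this list: 53.1% of the 2354 gaps between neighbouring peaks were at least as long, and their median was 380 kb.

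The peak with the highest score in the region was intergenic, at chr5:91303012-91303442 (mm10), and scored 198. The score is the authors' value for each peak. It ranks peaks against each other in this list alone and runs from 13 to 2234 with a median of 67. In all, 89 of the 2374 peaks (3.75%) scored 198 or more. The peak was 431 bp wide, against a median of 342 bp, and 80.2% of peaks were narrower. The authors' table assigned it to Gm19619, a lncRNA gene between Areg and Btc, with its centre 20.2 kb upstream of the TSS of that gene. It lay 155 kb from Areg, past the end of the gene, and 53.8 kb from Btc, on the 3′ side of that gene, which is read from the minus strand.

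A second intergenic peak stood 17.1 kb further on, at chr5:91320495-91320781. It scored 70, a value that 47.3% of peaks reached, and was also assigned to Gm19619, 37.6 kb upstream of its TSS. With an edge 36.5 kb from Btc it was the nearest peak to any ligand gene, and its centre was 82.4 kb from the Btc TSS. Both peaks were therefore nearer to Btc than to Areg, by edge distance.

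The peak on the other side, at chr5:90977928-90978250, scored 62 and lay in intron 6 of 7 of Mthfd2l, the gene of a mitochondrial folate enzyme, to which it was assigned. It was 96.4 kb from Ereg and 161 kb from Areg. For Ereg it was the sole peak within 200 kb. Measured from the TSS of Areg to the peak centre, this peak (162 kb) was slightly nearer than the peak of score 198 (164 kb), so the nearest peak to Areg depends on where the distance is taken. After the second Gm19619 peak there was no further peak for 1184 kb, where one of score 49 followed.

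**Figure D1:**
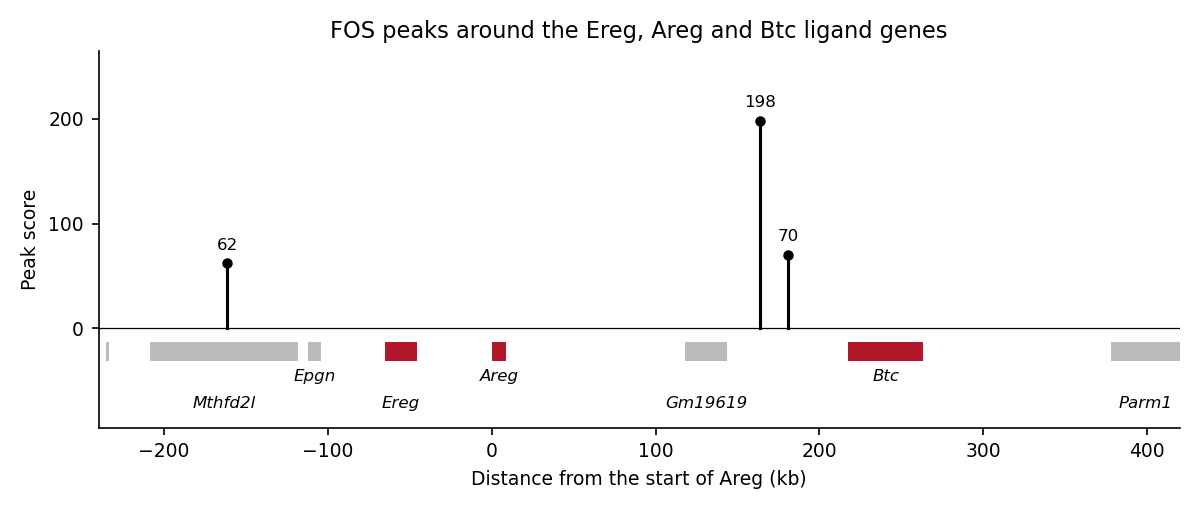
Position and score of each FOS peak around the ligand genes. The x axis is the distance from the start of Areg in kb, each stem is 1 peak with its score as height, red bars are Ereg, Areg and Btc and grey bars other genes. The peaks of score 198 and 70 stand between Areg and Btc, the peak of score 62 stands in Mthfd2l, and no peak stands over a ligand gene.

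By edge distance 36.0% of protein-coding genes were as near to a peak as Areg or nearer, and for Ereg and Btc the shares were 27.0% and 15.2%. The median distance over all protein-coding genes was 286 kb. All 3 ligand genes were thus nearer to a peak than the median gene. Areg had 3 peaks within 200 kb, Btc had 2 and Ereg 1. At least 3 peaks were found around 6.23% of protein-coding genes, at least 2 around 17.4% and at least 1 around 41.7%.

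**Figure D2:**
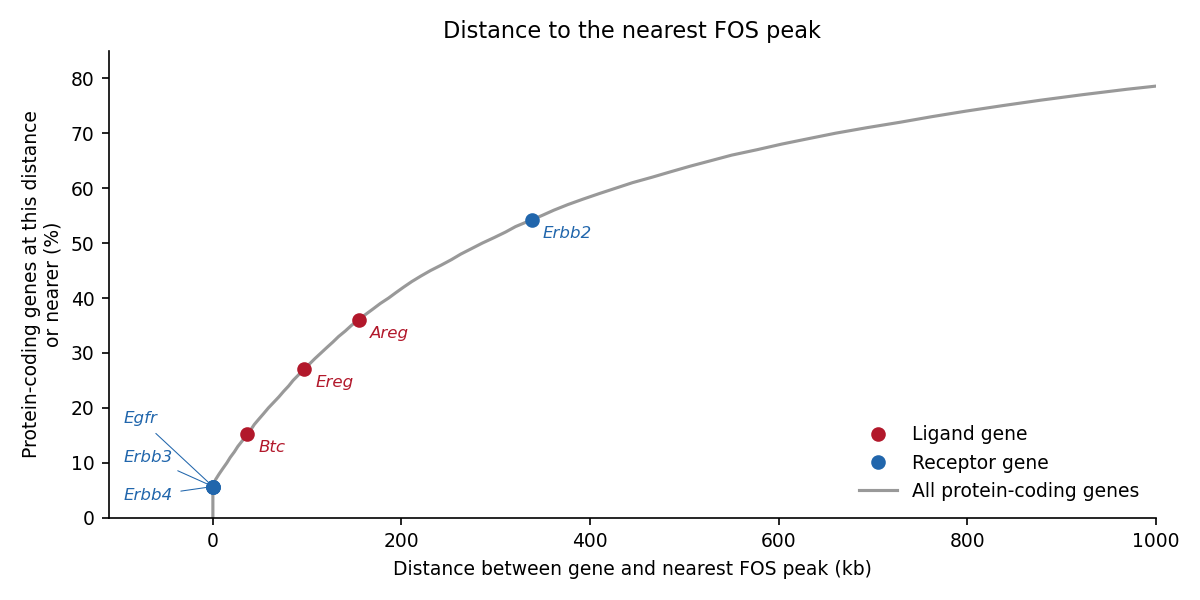
Distance from each gene to its nearest FOS peak. The x axis is the distance in kb between the nearer edges of gene and peak, the y axis the share of all protein-coding genes at that distance or nearer; red points are ligand genes, blue points receptor genes and the grey line all protein-coding genes. Egfr, Erbb3 and Erbb4 are at 0, the ligand genes lie between 36.5 and 155 kb, and Erbb2 is at 338 kb.

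Egfr, the receptor that all 3 ligands bind, had the highest score among the peaks inside these genes. Its peak, at chr11:16800640-16801009, scored 97, and 655 of the 2374 peaks (27.6%) scored as high or higher. The peak was 370 bp wide and lay in the first intron, given as intron 1 of 27 in the authors' annotation and as intron 1 of 15 in its detailed form. Its centre was 48.6 kb downstream of the TSS, 30.1% of the way along a gene of 162 kb. It stood alone: the nearest other peak, of score 82 and assigned to Ppp3r1, was 376 kb from it, and 27.4% of peaks in the list were as far from another or farther.

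Erbb4, which binds betacellulin, epiregulin and neuregulins, also had its peak in the first intron. At chr1:68743470-68743737 it scored 51, a value that 70.6% of peaks reached. At 268 bp it was as narrow as any peak in the list, and 199 peaks (8.38%), this one among them, had that width. Its centre was 364 kb downstream of the TSS, in intron 1 of 26 and 33.8% of the way along a gene of 1077 kb. The nearest other peak was 755 kb away, and no other protein-coding gene lay within 200 kb of Erbb4. First introns held 434 of the 1060 intronic peaks of the list (40.9%).

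Long genes held peaks more often than short ones, and whether length has a part in the peaks of Egfr and Erbb4 was not tested. The protein-coding genes were put in 10 groups of nearly equal size by the length of their span. In the group with the longest spans, which holds Egfr and Erbb4, 18.8% had a peak inside the span, against 5.70% of all protein-coding genes. Of the 59 genes of 1 Mb or longer, 8 had one (13.6%). Erbb3 spans 22.1 kb, and in its group, which also holds Ereg, 4.11% of genes had a peak inside the span. The shares were 2.79% in the group of Areg, 4.98% in that of Erbb2 and 7.77% in that of Btc.

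Erbb3, the receptor with the weak kinase, was the one gene of the 7 with a promoter peak. The peak at chr10:128589546-128589992 scored 70, near the median, and 47.3% of peaks scored as high or higher. It was 447 bp wide, with 83.5% of peaks narrower, and its centre was 268 bp upstream of the TSS. A promoter peak was named for 1.55% of protein-coding genes. The peak of Erbb3 thus differed from those of Egfr and Erbb4 in place, at the start of the gene and not deep in the first intron.

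Other promoters near Erbb3 held peaks too. The promoter peak of Myl6, a myosin light chain gene, scored 133 and lay 73.4 kb from Erbb3, that of Esyt1, an extended synaptotagmin gene, scored 51 at 41.2 kb, and that of Smarcc2, a chromatin remodelling subunit gene, scored 38 at 109 kb. The last of these was assigned to the microRNA gene Mir8105. All 4 peaks within 200 kb of Erbb3 were of the promoter class, against 15.2% of all peaks. At least 4 peaks in such a window were found around 2.12% of protein-coding genes, but the window of Erbb3 was also crowded, with 20 other protein-coding genes. Whether gene density has a part in the number of peaks was not tested. Rnf41, the gene of a ubiquitin ligase known to lower ERBB3 protein, lay 126 kb from Erbb3 and had no peak of its own, and its nearest peak, the one at Smarcc2, was 16.9 kb away.

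Erbb2, the partner receptor without a ligand of its own, had no peak within 200 kb although 15 other protein-coding genes lay in that window. The nearest peak was 338 kb away, at the promoter of Nr1d1, the gene of the clock repressor REV-ERB alpha, and scored 221. On the other side the nearest was 376 kb away at the 3′ end of Stac2, assigned to Rpl19, and scored 123. Of all protein-coding genes 54.2% were as near to a peak as Erbb2 or nearer, so its distance was close to the median.

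**Figure D3:**
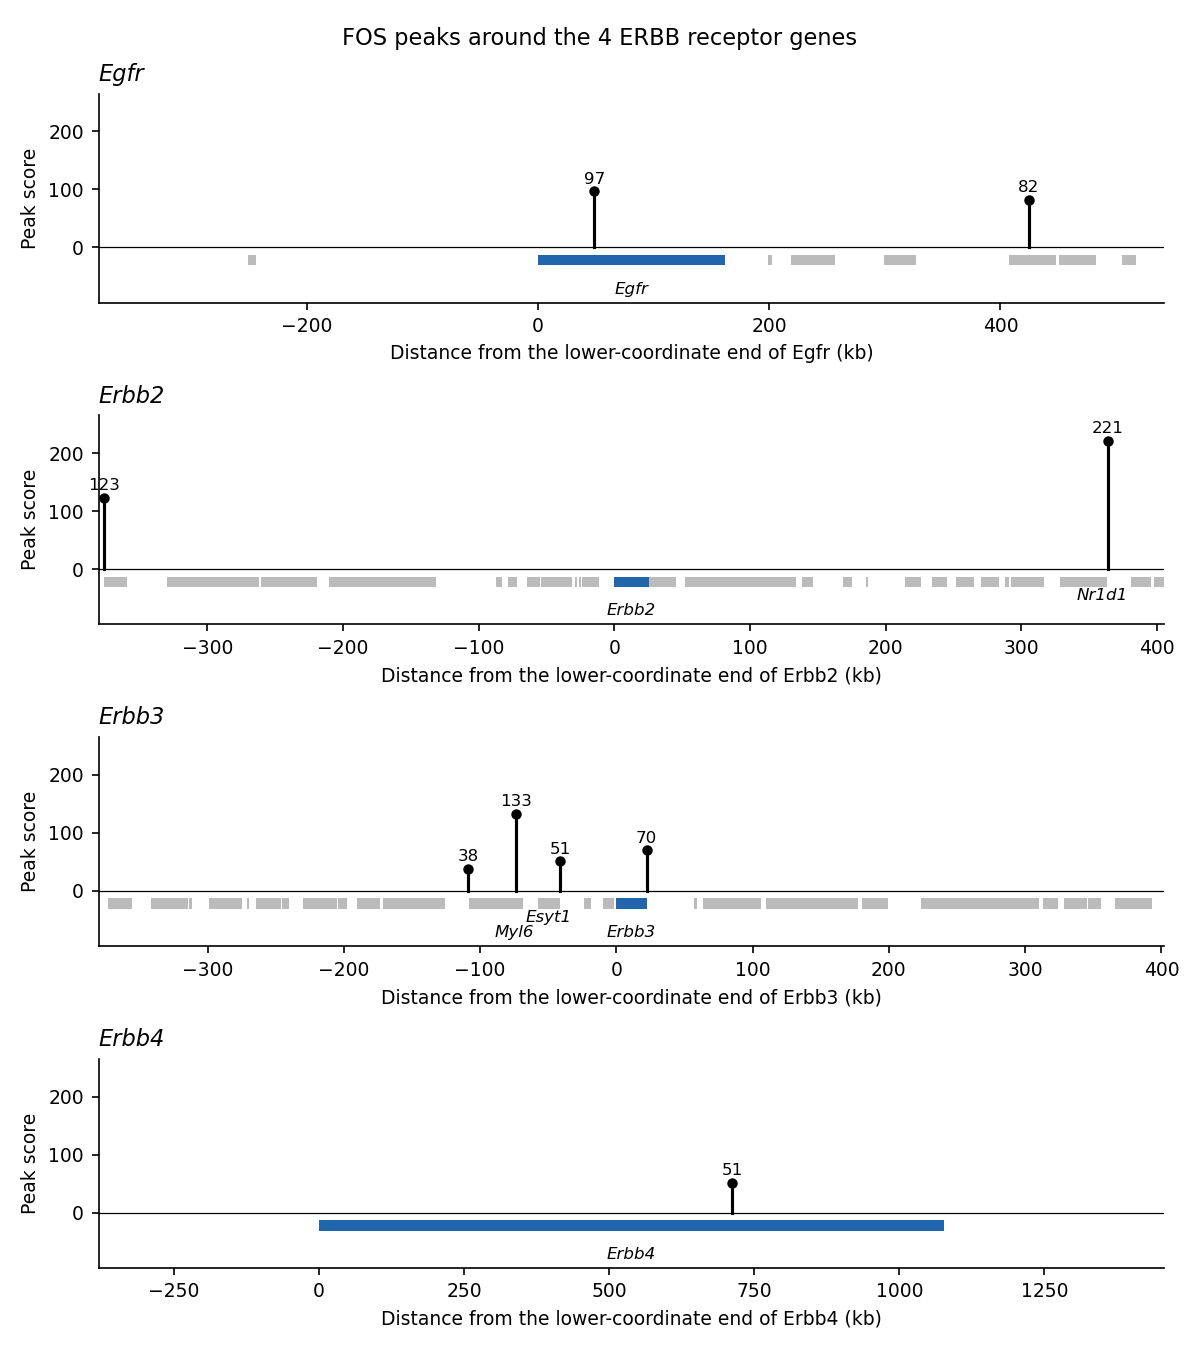
Position and score of each FOS peak around Egfr, Erbb2, Erbb3 and Erbb4. In each panel the x axis is the distance in kb from the lower-coordinate end of the gene, each stem is 1 peak with its score as height, the blue bar is the receptor gene and grey bars are other protein-coding genes. Erbb3 and Erbb4 are read right to left; the Erbb3 peak stands at the start of the gene, the Egfr and Erbb4 peaks inside it, and the peaks nearest Erbb2 score 221 and 123.

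The order of the scores at the receptors was Egfr (97), Erbb3 (70) and Erbb4 (51), around the list median of 67, and none reached the upper quartile of 99. Egfr was just under that quartile. The peak of score 198 between Areg and Btc, which lay in no ligand gene, scored higher than any peak inside a receptor gene. Among peaks outside the receptor genes, the Myl6 peak near Erbb3 scored 133. The peak nearest Erbb2, 338 kb away, scored 221. With no replicate the error of a score is unknown, and whether the scores differ beyond it could not be tested.

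**Figure D4:**
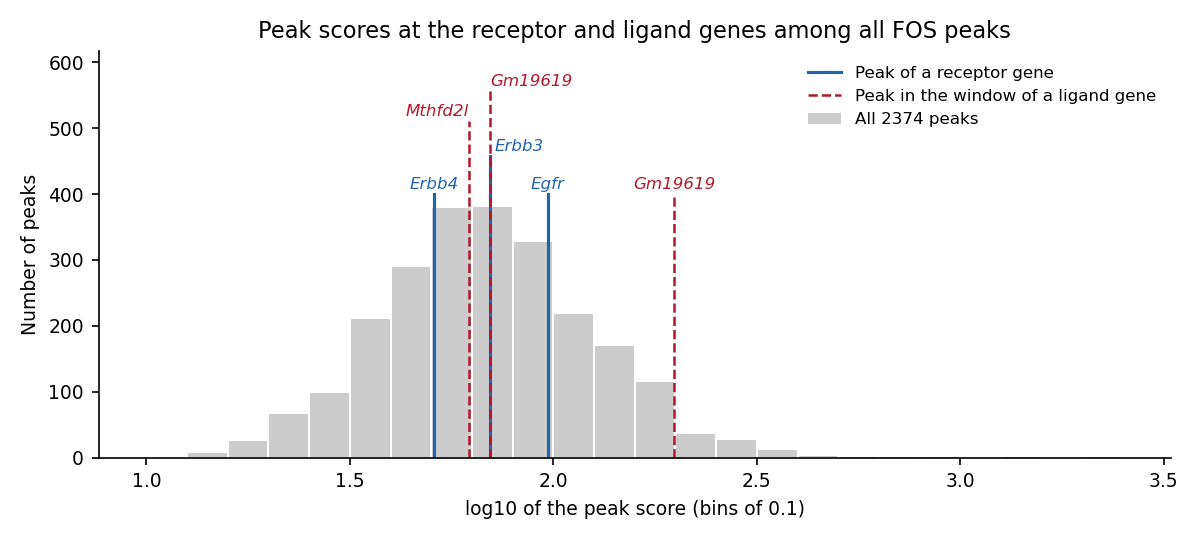
Scores of the peaks of receptor genes, and of peaks within 200 kb of a ligand gene, among all FOS peaks. The x axis is log10 of the authors' peak score, the y axis the number of peaks per bin; solid blue lines are the peaks of Egfr, Erbb3 and Erbb4, dashed red lines the peaks within 200 kb of a ligand gene, named by the gene they are assigned to, and grey bars all 2374 peaks. The receptor peaks stand in the middle of the distribution, and the peak of score 198 stands in its upper tail.

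The wider pathway, with genes of the cumulus and of ovulation, was described with 69 other genes in 6 lists. Of the 69, 15 had a peak (21.7%, against 8.69% of all protein-coding genes). Of the 15, 8 are in the list of cumulus and ovulatory genes, which was drawn up knowing that such genes had peaks here. In the other 5 lists, also chosen with earlier results of these data known, 7 of 59 genes had a peak. By this count that was 11.9%, close to the 8.69% of all protein-coding genes. Any peak within 50 kb was found for 27 of the 69 genes, against 18.2% of all protein-coding genes. Of the 27, 7 are in the cumulus and ovulatory list. The rest are spread over the other lists: 2 of 8 other ligand genes, 4 of 7 for ligand shedding and 3 of 10 in the PI3K, SRC and STAT branch. The adaptor and RAS to MAPK list had 6 of 17, and the negative regulators had 5 of 17. Ligands came first in the signalling order. None of the 8 other ERBB ligand genes (Egf, Tgfa, Hbegf, Epgn and Nrg1 to Nrg4) had a peak, and the nearest peaks were 44.4 kb from Hbegf and 49.3 kb from Epgn. With Areg, Ereg and Btc added, no ERBB ligand gene of those examined was the nearest or the host gene of a peak. The share over all protein-coding genes was 8.69%, and with so few genes a count of none is near it.

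Of 7 genes for ligand shedding, 2 had a peak (28.6%, against 8.69% of all protein-coding genes). Adam10, a metalloprotease that releases betacellulin and EGF, had a promoter peak of score 124 at its TSS. For Adam9, of the same protease family, the peak scored 69 and was in intron 10 of 22. Adam17, the main sheddase of amphiregulin and epiregulin, had none, and its nearest peak was 3470 kb away.

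Downstream of the receptors, 1 of 17 genes of the adaptors and the RAS to MAPK cascade had a peak (5.88%). The share of all protein-coding genes was 8.69%. The gene was Sos2, a RAS exchange factor, with a peak of score 114 in intron 17 of 22 that was assigned to the neighbouring gene Vcpkmt. In the PI3K, SRC and STAT branch 1 of 10 genes had one, Pik3r1, the regulatory subunit of PI3K, whose intergenic peak scored 45 and stood 110 kb past the TSS in the direction of the gene. By the spans of the gene table a peak of score 107 also covered 34 bp at the edge of Pik3ca, the catalytic subunit, but the authors' table assigned it to Zmat3 and it was not counted.

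Among 17 negative regulators of ERBB signalling, 3 had peaks (17.6%, against 8.69% of all protein-coding genes). Cblb, a ubiquitin ligase that sends EGFR to degradation, had peaks of score 155 and 36 in intron 3 of 17. Socs5, which lowers EGFR signalling, had a promoter peak of score 116 and an intergenic one of score 34. Dusp5, a nuclear ERK phosphatase, had an intergenic peak of score 37. Errfi1, a feedback inhibitor of the EGFR kinase, had none, with its nearest peak 46.4 kb away. In the 5 lists up to here, the best peaks of Cblb, Adam10, Socs5 and Sos2 each scored above the Egfr peak. Those of Adam9 (69), Pik3r1 (45) and Dusp5 (37) scored below it.

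In the last list, of genes of cumulus expansion, ovulation and the control of meiosis, 8 of 10 had a peak. The share was 80.0%, against 8.69% of all protein-coding genes. Whether these genes act downstream of the receptors was not tested. The 8 genes were Tnfaip6, Nrip1, Ptx3, Pgr, Cebpb, Has2, Ptgs2 and Cebpa. Their best scores ran from 31 at Cebpa to 355 at Tnfaip6. Because the list was drawn up with such peaks known, its count is no independent evidence. Npr2 and Nppc, the receptor and ligand of the system that holds the oocyte in meiotic arrest and that the ovulatory signal lowers, had none.

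**Figure D5:**
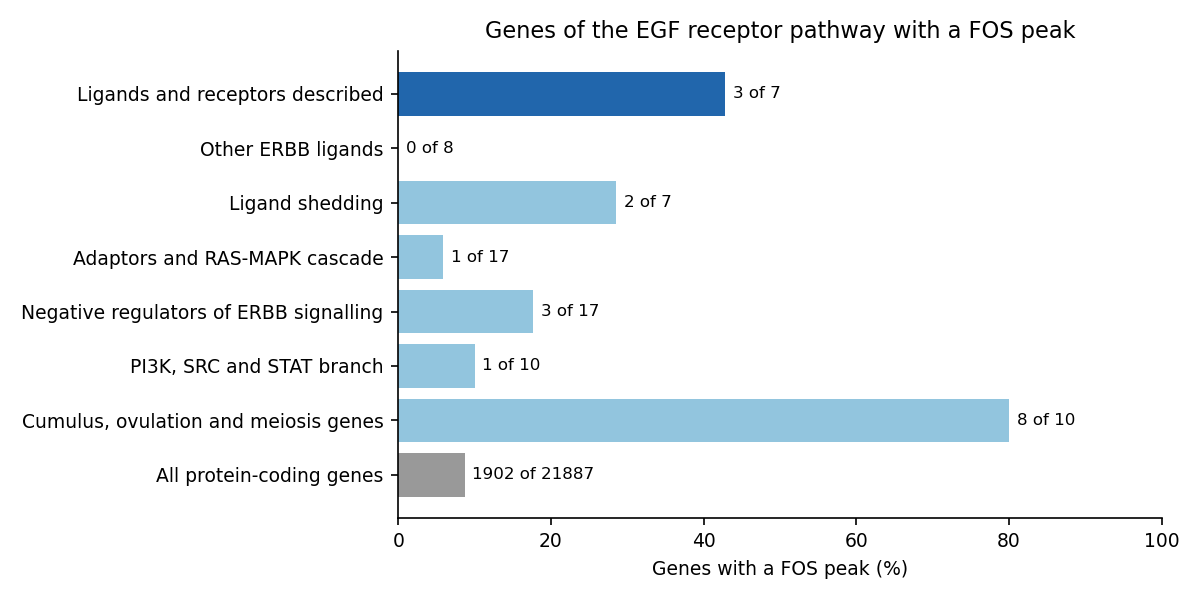
Share of genes with a FOS peak in lists of EGF receptor pathway genes and of cumulus and ovulatory genes. The x axis is the percentage of genes in each list that are the nearest or the host gene of a peak, with the counts beside the bars; dark blue is the 7 genes described, light blue the 6 lists and grey all protein-coding genes. The counts are 3 of 7 for the ligands and receptors described, 0 of 8 for other ligands, and 8 of 10 for cumulus and ovulatory genes. The share of all protein-coding genes is 8.69%. The 7 genes and the lists were chosen with earlier results of these data known, so the bars are no independent evidence.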

How the data were processed

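The deposited table lists the narrow peaks of 1 FOS ChIP-seq library, with a peak score that the authors deposited beside each. HOMER annotatePeaks, per the file headers, gave each narrow peak its nearest gene and genomic class. The submitters' processing notes name MACS2 2.2.7.1, BWA, deepTools 3.5.1, Trim Galore and the build mm10. For the peak threshold, the scale of the score and any control library used in calling, the settings were not given in the sources used here. A stricter or looser threshold would change which genes have a peak.

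Gene spans were taken from RefSeq (GRCm38.p6), and all 1965 nearest-gene names matched. Host genes were read from the brackets of the annotation. Distances run between the nearer edges of gene and peak, and the 256 protein-coding genes on chromosomes without a peak counted as farther than any other. Shares describe the whole list and carry no interval. No test was run, since there is 1 library. The members and lists were chosen with earlier results of these data known. All 7 genes, the genes assigned to peaks in their windows and every list gene with a peak are named. Hbegf, Epgn, Adam17, Errfi1, Rnf41, Pik3ca, Npr2 and Nppc were named after their values were seen. Distances and motif searches were tested on simulated data. Peak sequences were not analysed here. Python 3.11.15, numpy 2.4.6, pandas 2.3.3 and matplotlib 3.10.9 were used.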

Additional observations from a re-analysis of the deposited data

How the results depend on the processing

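Counting the peaks that scored 99 or more alone, the upper quartile, none of the 7 genes had one (0 genes and 0 peaks, against 2.55% of all protein-coding genes), because Egfr scored 97. With any peak near the gene counted, whichever gene it was assigned to, 5 of 7 genes had a peak within 100 kb (27.6% of all protein-coding genes) and 6 within 200 kb (41.7%), and 5 peaks lay within 50 kb of the genes. Areg, Ereg and Btc share peaks within 200 kb, so they are not independent in that count. The median distance from the 7 genes to a peak was 36.5 kb with all peaks and 155 kb with those that scored 67, the median, or more, since Ereg and Erbb4 lost their nearest peak, and that of Erbb4 was then 2786 kb away. With any peak within 50 kb, 27 of the 69 other genes in the 6 lists had one (18.2% of all protein-coding genes). Of the 27, 7 are in the cumulus and ovulatory list, which was drawn up with such peaks known. The rest are in the other 5 lists, also chosen with earlier results of these data known. The pooled count is therefore no independent evidence. The count of 3 genes was 3 with the nearest gene alone, 2 at or above the median score (4.75% of all protein-coding genes), 4 with any peak within 50 kb, and 3 without the top 1% of scores, the last chosen after seeing the data. Depth is unknown, so a gene without a peak may hold binding below the authors' threshold. No paired analysis was possible because the series gave 1 library with peaks and no test was run.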
